A study of Homo sapiens with 8 samples.

Results

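The 10 genes described here encode subunits of the machinery that cuts nascent messenger RNA near its end and adds the poly(A) tail: *CPSF1*, *CPSF2*, *CPSF3*, *CPSF6*, *CPSF7*, *NUDT21*, *CSTF1*, *CSTF2*, *CSTF3* and *PCF11*. They were taken by name, and every RefSeq entry of the deposited expression table that belongs to one of them was used, which gave 10 of 14528 genes and 16 of 24812 listed transcripts. RNA-seq was performed on SQ20B, an established line of human head and neck squamous carcinoma cells, with 4 replicates in normoxia and 4 replicates kept at 0.5% O2 for 16 h. All samples came from this single line in the same medium, and the comparison asks how oxygen deprivation alters individual transcripts. The table gives 1 FPKM value (a fragment density scaled to transcript length and to library size) per transcript and condition, over the replicates of that condition. In such bulk RNA fewer cells making a transcript and less of it per cell cannot be told apart. The table gives neither a spread between replicates nor the reads behind a value, so the differences below are descriptions of these values without a test.

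Levels were compared as log2((hypoxia FPKM + 0.1)/(normoxia FPKM + 0.1)), which understates the difference for low values, and gene levels are sums over the listed transcripts. A gene or transcript was counted as called when it differed by at least 1.5-fold and its FPKM averaged 0.5 or more across normoxia and hypoxia. The summed FPKM of the table was 536005 under normoxia and 458431 under hypoxia, so that scaling the columns to equal sums moves log2 differences upward by 0.23, and by less where FPKM is low. Among the 12106 genes above the FPKM limit the median log2 difference was -0.07. Of 8 squamous or general epithelial markers, *EPCAM* and *CDH1* among them, 7 were listed and *KRT14* was not. Levels ranged from *KRT6A* at 5.10 FPKM under normoxia and 3.26 under hypoxia up to *KRT5* at 398 and 442 FPKM. *TP63* stood at 42.8 FPKM under normoxia and 44.6 under hypoxia. Of the 9 leukocyte, endothelial and fibroblast markers looked for, 3 were listed. *CD14* and *COL3A1* lay below 0.5 FPKM in both conditions, and *CDH5*, a cadherin of endothelial cells, stood at 4.78 FPKM under normoxia and 2.83 under hypoxia.

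Most messenger RNAs carry the hexamer AAUAAA upstream of the place where they are cut. The cleavage and polyadenylation specificity factor (CPSF) binds the hexamer and holds the endonuclease, the cleavage stimulation factor (CstF) binds U-rich or GU-rich sequence downstream, and cleavage factor Im (CFIm) binds UGUA upstream. Many genes carry several such sites, and the amounts of these factors are known to bear on which site is used, and so on where an mRNA ends. In the GENCODE models of GRCh37, the genome build of the table, 9 of 10 MANE Select transcripts of these genes held AATAAA on the sense strand within their last 50 bases, *CPSF1* being the exception, against 65.2% of 18922 MANE Select transcripts of all coding genes.

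*CSTF3* is shown in sequence because its transcripts divide into a full-length and a short kind. It encodes CstF-77, the scaffold of CstF, and lies on the minus strand of chromosome 11 (33106129 to 33183037). The full-length GENCODE model has 21 exons and 2151 coding bases, and 2 short models end 202 and 701 bases into intron 3 (positions 33129965 to 33163212), with 132 and 309 coding bases and with neither AATAAA nor ATTAAA in their last 50 bases. A short CSTF3 transcript made by polyadenylation within this intron is known, and CstF-77 itself is known to promote its use. The windows below give 30 bases each, from GRCh37 and written 5′ to 3′ on the minus strand, with the hexamer in capitals. The first lies at the end of the full-length model (chr11:33106132-33106161), and the others are all matches to ATTAAA or AATAAA in the first 1000 bases of intron 3, at 146 (chr11:33163050-33163079), 216 (chr11:33162980-33163009) and 733 bases (chr11:33162463-33162492).
Full-length end: agtcctttaaaaAATAAAaggattcagaaa
Intron 3, base 146: tataaaggagtaATTAAAatgaatttttga
Intron 3, base 216: agttgcaacaacATTAAAacagtttcaatg
Intron 3, base 733: agtaaaaatgatAATAAAagttttaatgtg
The first 1000 bases held AATAAA in 43.5% and ATTAAA in 39.2% of the 5377 introns of at least that length in MANE Select transcripts of chromosome 11, and both in 21.5%. A match is a stretch of letters and not a mapped cleavage site.

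At the gene level 9 of the 10 genes passed the FPKM limit. Of these 9, 8 were lower in hypoxia as deposited and 4 after scaling to equal sums. Of all genes above the limit, 56.4% and 36.0% were lower in these 2 settings. The exception as deposited was *CPSF6*. No member reached a 1.5-fold difference in either direction, against 11.2% of genes that were at least 1.5-fold lower and 9.95% that were at least 1.5-fold higher. A difference of at least 1.2-fold was found for 4 members, *CPSF2*, *CPSF3*, *CSTF1* and *CSTF2*, all of them lower, where 33.0% of all genes were that much lower and 23.8% that much higher. The median log2 difference of the 9 genes was -0.20. With both columns brought to the same sum, 4 members were lower and 5 higher, with a median of 0.03 beside 0.15 for all genes. Quantile normalization gave 5 and 4, where 48.5% of all genes were lower. The 4 genes above were lower under each of these scalings and under centring on the median of all genes. *CSTF1* was higher in hypoxia, at 0.13, when only its most abundant transcript was used.

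**Figure D1:**
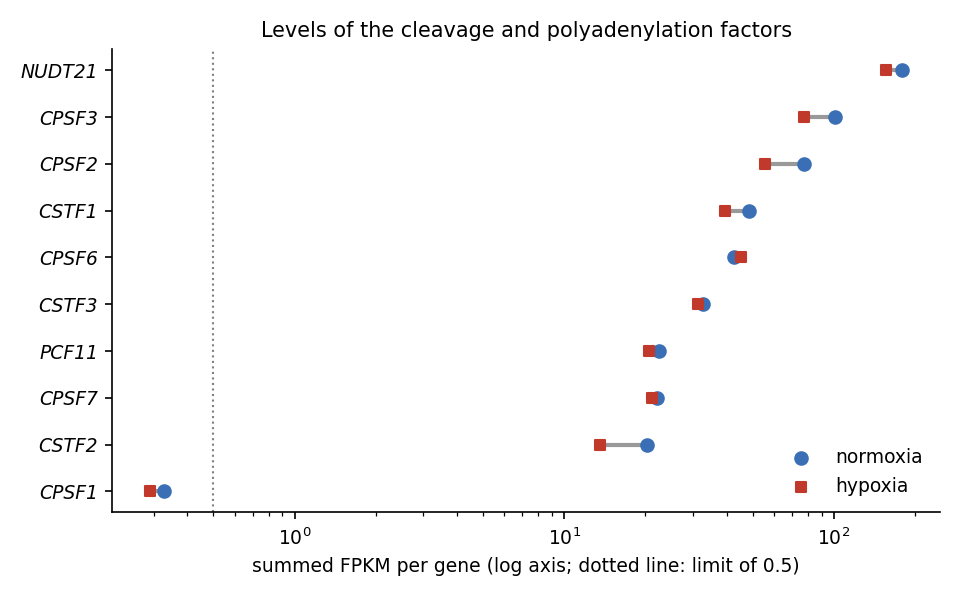
Summed FPKM per gene on a log axis for the 10 factors, with normoxia as blue circles and hypoxia as red squares, 1 value per condition and no error bars; the dotted line is the limit of 0.5 FPKM. *NUDT21* is highest at 179 and 156 FPKM, *CPSF6* is the one gene above the limit whose hypoxia value lies to the right (with equal sums 5 of 9 would), and *CPSF1* is listed below the limit.

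CPSF3 is the endonuclease that makes the cut, and CPSF2 is its relative without catalytic activity, bound to it in the same module. *CPSF3*, on chromosome 2 of hg19 (9563665 to 9613239), stood at 101 FPKM under normoxia and 77.3 under hypoxia, with a log2 difference of -0.38. *CPSF2*, on chromosome 14 (92588297 to 92630543), stood at 77.4 and 55.7 FPKM, a log2 difference of -0.47. Both genes were thus among the more abundant of the set and lower in hypoxia, and the ratio of *CPSF3* to *CPSF2* was 1.30 under normoxia and 1.39 under hypoxia. Of all genes above the limit, 17.1% had a lower log2 difference than *CPSF2* and 23.3% a lower one than *CPSF3*.

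*CPSF1* encodes the large scaffold of the module that reads the hexamer. Its only listed transcript, NM_013291 on chromosome 8 (145597703 to 145634733), stood at 0.327 FPKM under normoxia and 0.291 under hypoxia, below the limit in both, and 11.6% of all listed genes had a lower mean FPKM. Its ratio to *CPSF2* was 0.00423 under normoxia and 0.00522 under hypoxia. The table gives *CPSF1* the same interval as *ADCK5*, whose entry was at 0.118 and 0.0719 FPKM. The reason for so low a listed value beside the much higher ones of *CPSF2* and *CPSF3* was not tested, and no difference between conditions is read from it.

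CFIm is formed by NUDT21, which contacts UGUA, with CPSF6 or CPSF7, related proteins rich in arginine and serine. *NUDT21*, on chromosome 16 (56463047 to 56485261), was the most abundant of the 10 genes, at 179 FPKM under normoxia and 156 under hypoxia, with a log2 difference of -0.20. *CPSF6*, on chromosome 12 (69633316 to 69668138), stood at 42.8 and 45.3 FPKM, a log2 difference of 0.08. *CPSF7*, on chromosome 11 (61170119 to 61197464), summed to 22.1 and 21.1 FPKM, a log2 difference of -0.07. As deposited, none of the CFIm genes reached a 1.2-fold difference, and the direction depended on scaling for *NUDT21* and *CPSF7*. With equal sums *NUDT21* was at 0.03 and *CPSF7* at 0.16, with quantile normalization they were at 0.08 and 0.02, and with median centring *CPSF7* was at 0.00 and *NUDT21* at -0.13. *CPSF6* was at 0.31 with equal sums and 0.27 with quantile normalization, both past 1.2-fold, and at 0.15 with median centring.

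Ratios within CFIm are not altered by a factor applied to a whole column. *NUDT21* stood at 2.76 times the sum of *CPSF6* and *CPSF7* in normoxia and 2.35 times in hypoxia. The ratio of *CPSF6* to *CPSF7* was 1.94 and 2.15. When only the most abundant transcript of each gene was used, the hypoxia ratio of *CPSF6* to *CPSF7* was 0.992 times the normoxia ratio, in place of 1.11 times, so its direction depended on how transcripts were added.

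CstF joins CSTF1, CSTF2 and CSTF3, and CSTF2 (CstF-64) is the subunit that touches RNA. *CSTF2*, on the X chromosome (100075347 to 100095923), stood at 20.4 FPKM under normoxia and 13.6 under hypoxia, with a log2 difference of -0.58. This was the lowest value of the 9 genes and 1.496-fold, just short of the limit, and 11.4% of all genes had a lower one. Under the other scalings *CSTF2* was at -0.36 with equal sums, -0.51 with median centring and -0.47 with quantile normalization. *CSTF2T*, an intronless paralog of *CSTF2* that lies within *PRKG1* and encodes a closely similar protein, stood at 11.5 and 9.05 FPKM, a log2 difference of -0.34. The ratio of *CSTF2* to *CSTF2T* was 1.77 in normoxia and 0.847 times that value in hypoxia, and how reads of the alike parts were shared between the genes was not tested. *CSTF1*, which encodes the WD-repeat subunit CstF-50, summed to 48.4 and 39.3 FPKM (-0.30), and *CSTF3* to 32.7 and 31.3 FPKM, at -0.06 as deposited but 0.16 with equal sums, 0.01 with median centring and 0.03 with quantile normalization.

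PCF11 belongs to cleavage factor IIm, binds the C-terminal domain of RNA polymerase II and is needed for transcription to end. *PCF11*, on chromosome 11 (82868136 to 82896835), stood at 22.6 FPKM under normoxia and 20.6 under hypoxia, with a log2 difference of -0.13. The value was 0.10 with equal sums, -0.06 with median centring and -0.0051 with quantile normalization. Its ratio to *CPSF3* was 0.223 under normoxia and 0.267 under hypoxia. In order of level the genes stood in normoxia as *NUDT21*, *CPSF3*, *CPSF2*, *CSTF1*, *CPSF6*, *CSTF3*, *PCF11*, *CPSF7*, *CSTF2* and *CPSF1*, and in hypoxia *CPSF6* passed *CSTF1* and *CPSF7* passed *PCF11*. Without replicate values it could not be tested which neighbours in this order differ.

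**Figure D2:**
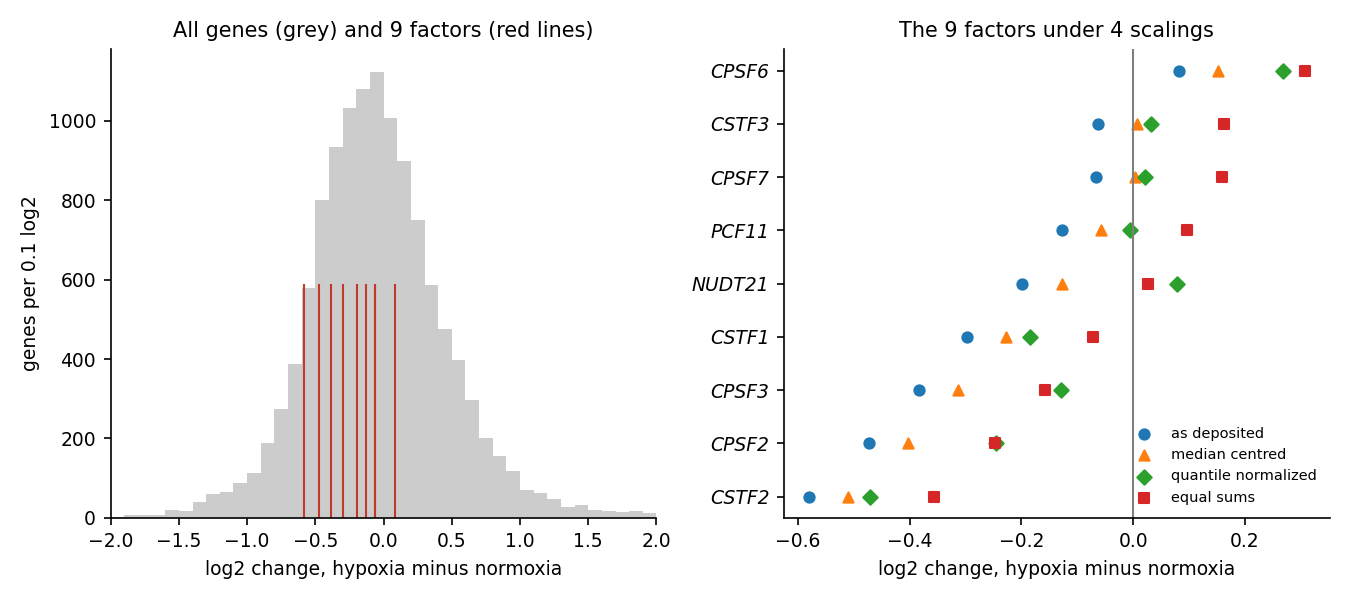
Left, histogram of the log2 difference (hypoxia minus normoxia) of all 12106 genes above the FPKM limit in bins of 0.1, with the 9 factors as red lines; right, the same 9 values as deposited and under 3 other scalings. The factors lie between -0.58 and 0.08 as deposited, and *CSTF2*, *CPSF2*, *CPSF3* and *CSTF1* stay left of 0 under all 4 scalings.

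At the transcript level 14 of the 16 entries passed the FPKM limit, and 2 of them were called, one of *CSTF1* and one of *CSTF3*. The share of all 18190 transcripts above the limit was 14.3% for at least 1.5-fold lower and 10.5% for at least 1.5-fold higher. *CPSF7*, *CSTF1* and *CSTF3* have 3 entries each, and every other member has 1. The fraction of the summed FPKM that each entry took within its gene was compared as well, since a factor applied to a whole column leaves it as it is. These shares rest on how Cufflinks divides reads among overlapping transcripts, and their error is unknown here.

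Of the *CSTF3* entries, NM_001326 encodes the full-length protein, and NM_001033505 and NM_001033506 are the short variants of RefSeq. The files do not pair these identifiers with the GENCODE models, so it was not settled which short entry ends where. NM_001326 stood at 18.7 FPKM under normoxia and 15.3 under hypoxia, with a log2 difference of -0.29. NM_001033505 stood at 11.0 and 11.3 FPKM (0.04), and NM_001033506 at 3.01 and 4.74 FPKM, a log2 difference of 0.64. As deposited, the full-length entry was therefore lower in hypoxia and the rarer short entry higher, while the sum over the gene differed little.

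NM_001033506 was the called entry of *CSTF3*, and at a pseudocount of 1 its log2 difference was 0.52, below the limit of 0.58. The direction of all 3 entries was the same under equal sums, median centring and quantile normalization, but the sizes moved. With equal sums NM_001326 was at -0.06, NM_001033505 at 0.26 and NM_001033506 at 0.86. Together the short entries stood at 14.0 FPKM under normoxia and 16.0 under hypoxia, which was 42.8% and 51.1% of the *CSTF3* sum, a difference of 8.32 percentage points. Per full-length FPKM there was 0.747 short FPKM under normoxia and 1.04 under hypoxia. Among the 1294 genes above the limit with 3 listed transcripts, the largest share difference had a median of 3.80 points, and 22.4% of these genes had one at least as large as that of *CSTF3*. The short GENCODE models end 202 and 701 bases into intron 3. Of the windows printed above, that at base 146 lies before both ends, that at base 216 between them and that at base 733 beyond both. Whether any of them serves either end was not tested.

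*CSTF1*, on chromosome 20 (54967426 to 54979582), had the largest share difference of the 3 genes with several entries. Its 3 RefSeq entries differ before the coding sequence and encode the same protein. NM_001324 stood at 23.4 FPKM under normoxia and 14.0 under hypoxia, with a log2 difference of -0.74, and was called. NM_001033521 stood at 18.9 and 20.7 FPKM (0.13), and NM_001033522 at 6.09 and 4.67 FPKM (-0.37). The lower sum of *CSTF1* in hypoxia thus came with a lower NM_001324 and not with a lower NM_001033521.

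The share of NM_001324 in the *CSTF1* sum was 48.4% in normoxia and 35.6% in hypoxia, and that of NM_001033521 was 39.0% and 52.6%, so that a different entry led in each condition. The larger of these differences was 13.6 percentage points, and 10.2% of the genes with 3 transcripts had one at least as large. With equal sums NM_001324 was at -0.52 and no longer past the limit. When *CSTF1* was represented by its most abundant entry over both conditions, NM_001033521, the gene-level log2 difference turned from -0.30 to 0.13. The ratio of *CSTF3* to *CSTF1* was 0.676 under normoxia and 0.796 under hypoxia, which is 1.18 times as high, and with the most abundant entry of each gene it was 0.747 times as high.

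For *CPSF7*, NM_001142565 stood at 13.5 FPKM under normoxia and 14.4 under hypoxia (0.09), and NM_001136040 at 8.52 and 6.55 FPKM (-0.37). NM_024811 stood at 0.0795 and 0.146 FPKM, below the limit. The share of NM_001142565 was 61.1% in normoxia and 68.3% in hypoxia, and that of NM_001136040 was 38.5% and 31.0%. The largest share difference of the gene was 7.52 percentage points, which 25.9% of the genes with 3 transcripts reached.

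**Figure D3:**
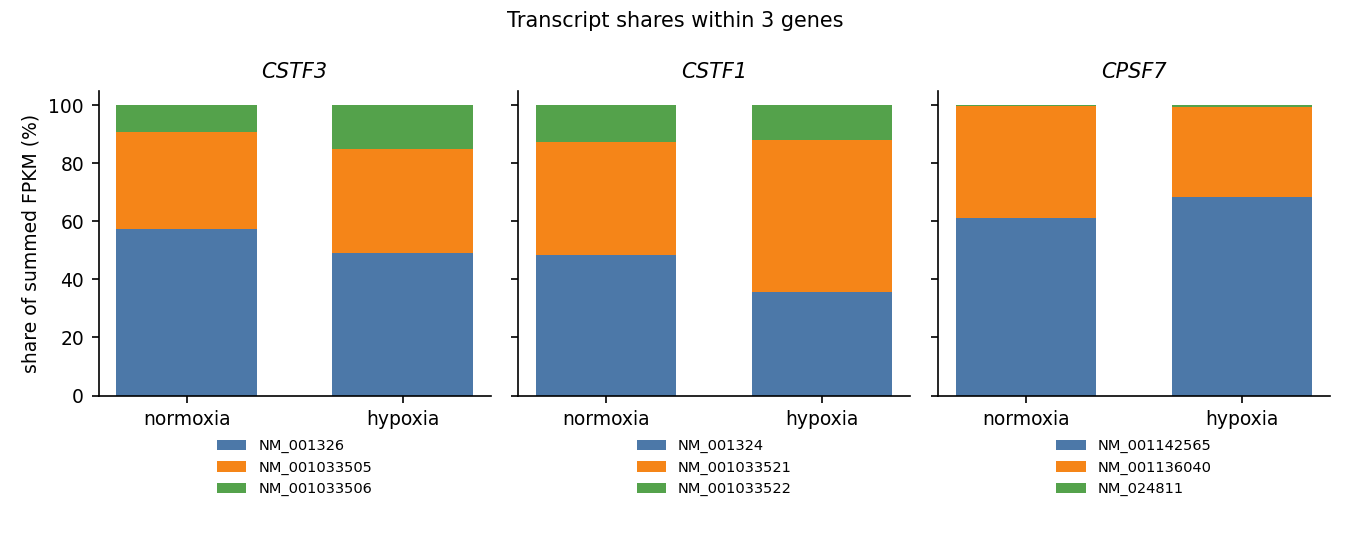
Stacked bars of the share (%) of each listed transcript in the summed FPKM of *CSTF3*, *CSTF1* and *CPSF7* in normoxia and hypoxia, with no error bars. The full-length *CSTF3* entry goes from 57.2% to 48.9%, NM_001324 of *CSTF1* from 48.4% to 35.6% and NM_001142565 of *CPSF7* from 61.1% to 68.3%.

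The other core factors were given by a list of 13 genes, all above the FPKM limit. Of these, 9 were lower in hypoxia and 4 higher, with a median log2 difference of -0.27, and none reached 1.5-fold. As deposited, 56.4% of all genes were lower, with a median of -0.07. The median of the 13 was -0.05 with equal sums and -0.14 with quantile normalization, beside 0.15 and 0.015 for all genes. At 1.2-fold 7 of the 13 were lower and 1, *SYMPK*, was higher. Of all genes 33.0% were that much lower and 23.8% that much higher. FIP1L1 is a CPSF subunit that binds the poly(A) polymerase, and CLP1 is the partner of PCF11. *FIP1L1* stood at 39.0 FPKM under normoxia and 27.9 under hypoxia (-0.48) and *CLP1* at 42.5 and 30.6 FPKM (-0.47), close to the value of *CPSF2*. CPSF4 and WDR33, the subunits that touch AAUAAA, were at 11.7 and 9.66 FPKM (-0.27) and at 25.6 and 26.3 FPKM (0.04).

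Among the phosphatase subunits of the complex, *PPP1CB* went from 246 FPKM in normoxia to 174 in hypoxia (-0.50), *PPP1CA* from 55.4 to 44.4 (-0.32) and *SSU72* from 56.0 to 51.1 (-0.13). *PABPN1*, which encodes the nuclear poly(A)-binding protein, was at 3.42 and 2.59 FPKM (-0.39). The poly(A) polymerase gene *PAPOLA* was at 96.1 and 108 FPKM (0.17), and its relative *PAPOLG* at 6.35 and 6.18 (-0.04). *RBBP6* was at 11.2 and 13.3 FPKM (0.25) and *SYMPK*, the gene of the scaffold symplekin, at 1.70 and 2.16 (0.33). Values of *PAPOLG* and *SSU72* turned positive with equal sums and with quantile normalization, and that of *PAPOLG* also with median centring. Under the first pair 7 of the 13 were thus lower, beside 36.0% of all genes with equal sums and 48.5% with quantile normalization.

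Further lists covered neighbouring steps. For Integrator, which cleaves small nuclear RNA and other transcripts of RNA polymerase II, 12 of 13 listed genes passed the limit. As deposited 9 were lower with a median of -0.19, beside 56.4% of all genes and a median of -0.07. With equal sums 5 were lower with a median of 0.03, beside 36.0% of all genes and a median of 0.15. *INTS11*, the endonuclease related to *CPSF3*, stood at 5.43 FPKM under normoxia and 3.42 under hypoxia (-0.65). *INTS14* was at 1.35 and 0.696 FPKM (-0.86), though 4 further entries at its interval (chromosome 15, 65871095 to 65903627) could not be paired with a symbol and summed to 36.5 and 29.9 FPKM. For histone mRNA, whose ends are cut without a poly(A) tail by some of the same subunits, 3 of 6 genes were lower as deposited and 2 with equal sums or quantile normalization, and *ZNF473* was called at 10.8 and 6.42 FPKM (-0.75). The value of *INTS11* was -0.43 with equal sums and that of *ZNF473* was -0.52, both short of 1.5-fold.

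Of all genes above the limit, 56.4% were lower as deposited, 36.0% with equal sums and 48.5% with quantile normalization. Their medians were -0.07, 0.15 and 0.015. For termination and the polymerase C-terminal domain, 5 of 15 genes were lower and 10 higher, with a median of 0.09 and none called. With equal sums 2 of the 15 were lower and 13 higher, with a median of 0.30. The extremes, named after their values were seen, were *XRN2*, the exonuclease that follows cleavage, at 183 and 141 FPKM (-0.38), and *CCNK* at 4.55 and 5.88 FPKM (0.36). For deadenylation and poly(A) binding, 9 of 17 genes were lower as deposited, 5 with equal sums, 8 with median centring and 6 with quantile normalization, and the median of -0.04 was above 0 under each of these. *CNOT7*, a deadenylase of the CCR4-NOT complex, was called at 111 and 72.4 FPKM (-0.62), and *PAN2*, of the PAN2-PAN3 deadenylase, at 6.52 and 11.7 FPKM (0.84). With equal sums *CNOT7* was at -0.39 and *PAN2* at 1.06. Across the 5 lists 5 of 63 genes above the limit were called, 4 lower and 1 higher, beside 11.2% of all genes called lower and 9.95% called higher. With equal sums 1 was called lower (*INTS14*) and 3 higher (*PAN2*, *CNOT8* and *CNOT4*), the last pair at 0.70 and 0.64 and outside the naming rule. The share of all genes called with equal sums is not given here. *INTS14* counts as called in both settings without the 4 unpaired entries at its interval. Those entries, at 36.5 FPKM under normoxia and 29.9 under hypoxia together, had a log2 difference of -0.29 as deposited.

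**Figure D4:**
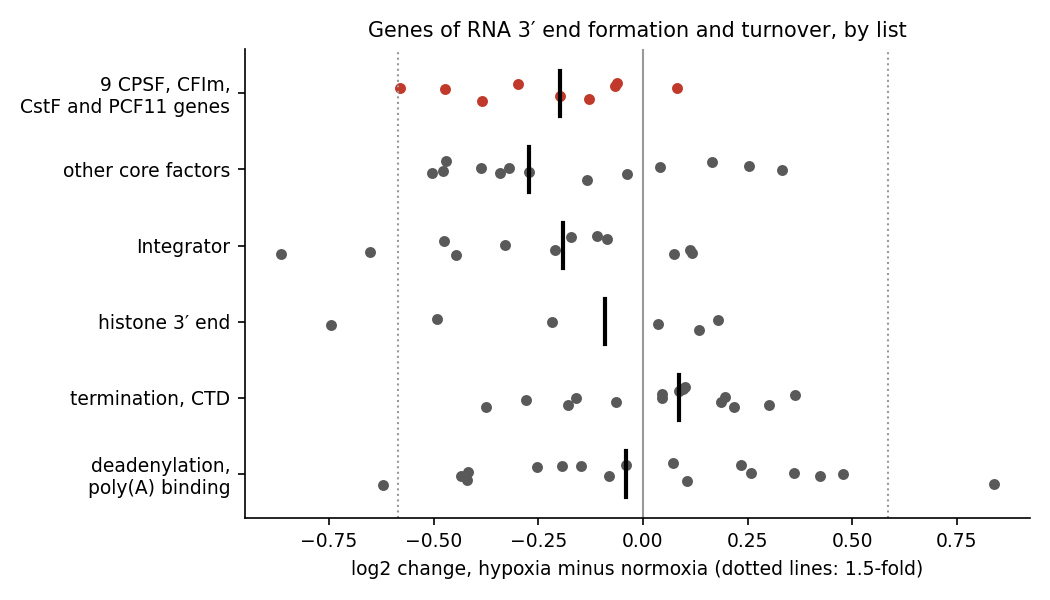
Log2 difference (hypoxia minus normoxia) of each gene above the FPKM limit in 6 lists, 1 point per gene with vertical scatter for visibility; black bars are medians and dotted lines mark 1.5-fold. The 9 factors (red) have a median of -0.20 as deposited (0.03 with equal sums) and the termination list one of 0.09 (0.30 with equal sums). All genes above the limit have one of -0.07 (0.15 with equal sums). In the lower lists 5 genes lie past 1.5-fold, *INTS14* without its unpaired entries.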

How the data were processed

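Poly(A)-selected stranded RNA of 8 samples (4 normoxia, 4 hypoxia) was sequenced. Per the labels and the study's methods, the authors aligned reads to hg19 with STAR 2.3.0.1 and ran Cufflinks 2.1.1 with RefSeq annotation. The deposited FPKM values are the authors', 1 per condition over its replicates; the authors' fold changes, test statistics, p-values and q-values in the same table were not used. The table holds no read counts, and neither intervals nor floors were computed.

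The 24812 entries (24797 distinct identifiers) were paired with symbols through RefSeq annotation of GRCh38.p14, used for names only; 24293 (97.9%) matched. FPKM were summed per gene, 0.1 was added before log2, and a mean of 0.5 FPKM was required. Calls were differences of at least 1.5-fold. Gene models and sequences came from GENCODE v44 on GRCh37. The counting was tested on simulated data. Named were all members and their transcripts, all other core factors and, from further lists, genes past 1.5-fold (at most 3 a direction); *XRN2*, *CCNK*, *CNOT4* and *CNOT8* fall outside this rule. No entry was paired with the symbols of *INTS4*, *CNOT6*, *KRT14* and 6 other markers, so these genes were not analysed here. The members and lists were chosen with earlier results of these data known. Alternatives covered the pseudocount, FPKM limit, fold limit, scaling and summing. Python 3.11.15, numpy 2.4.6, pandas 2.3.3 and matplotlib 3.10.9 were used.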

Additional observations from a re-analysis of the deposited data

How the results depend on the processing

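No paired analysis was possible because the deposited columns hold 1 value per condition and carry no replicate numbers, and for the same reason no replicate could be left out. The count of members lower in hypoxia went from 8 to 4 with equal sums and to 5 with quantile normalization. The shares of all genes that were lower in these settings were 56.4%, 36.0% and 48.5%. The count of members was 6 with median centring or with the most abundant transcript only, and otherwise 8 or 9. The median log2 difference of the members (-0.20) was -0.16 without an FPKM limit, 0.027 with equal sums, -0.13 with median centring and -0.0051 with quantile normalization. With equal sums 5 of 9 members kept their direction. No member reached 1.5-fold under any pseudocount, FPKM limit, scaling or way of summing, and 4 did at 1.2-fold. The 2 called transcripts were 1 with a pseudocount of 1, 1 with equal sums, 8 at 1.2-fold and 0 at 2-fold. The shares of all transcripts past 1.2-fold and 2-fold were not computed, so nothing about the members is read from these counts. Leaving out transcripts below 0.5 FPKM gave a *CPSF7* NM_001142565 share difference of 7.44 in place of 7.18 points. With the most abundant transcript only, the hypoxia ratio over the normoxia ratio was 0.992 in place of 1.11 for *CPSF6* to *CPSF7*, 0.822 in place of 0.852 for *NUDT21* to *CPSF6* plus *CPSF7*, and 0.747 in place of 1.18 for *CSTF3* to *CSTF1*, since 1 entry then stands for each of *CPSF7*, *CSTF1* and *CSTF3*. The other lists held 27 of 63 genes past 1.2-fold in place of 5 past 1.5-fold. Of all genes 33.0% were at least 1.2-fold lower and 23.8% at least 1.2-fold higher. Of 137 values of single genes and transcripts under the alternatives, 126 kept their sign. Many of these were fixed beforehand, since the pseudocount, the FPKM limit and the use of coding transcripts only cannot turn a sign here. All 11 changes of sign came with another scaling or with the most abundant transcript only. The table holds no read counts, so the counting error of single values was not computed.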

Other observations

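Transcript shares within the other core factors gave further values. *CPSF4* NM_001081559 stood at 1.203 FPKM in normoxia and 0.510 in hypoxia, 10.3% and 5.28% of the gene's sum, while NM_006693 was at 10.5 and 9.15 FPKM. *RBBP6* NM_006910 took 41.2% of its gene's sum in normoxia and 48.7% in hypoxia, and NM_032626 took 19.5% and 15.7%. The transcripts of *CLP1* and *FIP1L1* kept nearly the same shares: NM_006831 of *CLP1* had 59.6% and 60.4%, and NM_001134938 of *FIP1L1* 58.7% and 60.9%. Over the 5133 genes above the limit with several listed transcripts, the largest share difference had a median of 3.10 points. In 22.1% of those genes it was at least 7.52 points. The *CPSF4* NM_001081559 value in hypoxia lay close to 0.5 FPKM. All of these are single values per condition, and no difference between them was tested.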
